A study of Mus musculus with 52 samples.

Results

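The granins and the neuropeptide processing enzymes considered here are 10 genes, found by their symbols among the 46071 Ensembl genes of a count table of mouse brain RNA. The 6 granin-family genes are Vgf, Chga, Chgb, Scg2, Scg3 and Scg5, and the 4 enzyme genes are Pcsk1, Pcsk2, Cpe and Pam. All 10 matched a row, all 10 passed the filter on low counts in every comparison. They were named by symbol and not by a threshold on a measured value, although the set was proposed with earlier results of these data known. The samples are 52 RNA libraries from the brains of 3-month-old male C57BL/6J mice, an inbred laboratory strain with no transgene or deletion named in the labels. The mice received an infusion for 3 h during a clamp, a procedure in which infused glucose holds blood glucose steady. The basal group received saline, and insulin ran at 4 mU/kg/min (the low rate) or 12 mU/kg/min (the high rate) in the others. The hypothalamus gave 5 basal, 6 low and 5 high libraries, and the nucleus accumbens and the hippocampus gave 6 of each. The comparisons ask how the 10 genes differ between the 3 regions under saline, and whether insulin moved them in any region.

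Granins are acidic secretory proteins that gather peptide cargo into dense-core vesicles, and several are themselves cut into bioactive peptides. Neuropeptide precursors are cleaved inside these vesicles by the prohormone convertases PC1/3 (Pcsk1) and PC2 (Pcsk2). Carboxypeptidase E (Cpe) then trims basic residues from the new ends, and peptidylglycine alpha-amidating monooxygenase (Pam) amidates glycine-extended peptides. The hypothalamus is known for its peptidergic neurons, the nucleus accumbens serves reward and the hippocampus serves memory.

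Total counts per library ranged from 2453412 to 8279612. Values are given as CPM, that is, counts scaled to library size with TMM factors. The labels do not say which libraries come from different mice, so p-values here reflect spread among libraries, some of which may be technical. Each library was also scored for its lean to GC-rich transcripts. The lean is a Spearman correlation over genes, with genes not being independent replicates, of a library's deviation from its region's mean with transcript GC content. It exceeded 0.4 in 11 libraries. These were basal replicates 1, 2 and 5 but none of the 11 insulin libraries in the hypothalamus, 4 libraries in the hippocampus and 4 in the nucleus accumbens. By group medians, summed markers of each region were highest in that region. The genes Pomc, Oxt, Avp, Pmch and Hcrt, 5 peptide genes of the hypothalamus, summed to a median of 902 CPM in basal, 546 in low and 639 in high libraries of that region. At least 1 of the 5 was below 1 CPM in 0 of 5 basal, 3 of 6 low and 2 of 5 high libraries. In 6 of 18 accumbens libraries Slc17a7, a transporter gene of cortical and hippocampal excitatory neurons, exceeded 100 CPM.

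The cAMP response element is a short DNA sequence known to be bound by CREB, a transcription factor downstream of cAMP, and its letters were searched near the starts of these genes. RefSeq promoter windows of the build GRCm38.p6, 250 bases upstream of the annotated start, were matched for 8 of the 10 genes, Vgf and Cpe excepted. The full cAMP response element TGACGTCA was present in the windows of Scg2, Chgb and Pcsk1, and in 1.55% of 32851 windows of all genes. Its core, TGACG on either strand, was present in 7 of the 8 (Pam excepted) and in 17.8% of all windows, and every full element also counts as 2 cores. TATAAA was in 0 of the 8 and in 12.4% of all windows. The windows of the 3 genes with the full element and that of Chga, with 1 core, are shown because the first 3 genes differed between regions in opposite directions. Capitals mark the elements.

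Scg2 (chr1:79440027-79440276, minus strand): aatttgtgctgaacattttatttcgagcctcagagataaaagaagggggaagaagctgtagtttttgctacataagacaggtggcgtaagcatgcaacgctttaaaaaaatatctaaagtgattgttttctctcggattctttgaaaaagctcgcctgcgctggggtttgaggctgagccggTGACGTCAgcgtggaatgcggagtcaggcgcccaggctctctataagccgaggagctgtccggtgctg
Chgb (chr2:132781392-132781641, plus strand): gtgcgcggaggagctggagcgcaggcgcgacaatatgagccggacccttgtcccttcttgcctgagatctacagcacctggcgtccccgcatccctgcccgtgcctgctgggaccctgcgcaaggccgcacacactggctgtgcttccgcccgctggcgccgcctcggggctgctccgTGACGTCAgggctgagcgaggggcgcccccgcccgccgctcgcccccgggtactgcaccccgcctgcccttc
Pcsk1 (chr13:75089607-75089856, plus strand): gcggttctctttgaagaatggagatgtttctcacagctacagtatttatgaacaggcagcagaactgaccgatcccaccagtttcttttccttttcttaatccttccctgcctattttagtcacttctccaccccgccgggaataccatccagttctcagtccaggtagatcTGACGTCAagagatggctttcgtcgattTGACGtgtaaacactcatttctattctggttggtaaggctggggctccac
Chga (chr12:102554691-102554940, plus strand): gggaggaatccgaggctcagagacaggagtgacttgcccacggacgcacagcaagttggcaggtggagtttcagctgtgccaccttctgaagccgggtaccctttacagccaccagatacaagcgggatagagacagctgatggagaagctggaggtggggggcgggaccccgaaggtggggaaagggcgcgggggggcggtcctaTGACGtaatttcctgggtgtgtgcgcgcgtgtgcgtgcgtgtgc

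The full element lay at -68 to -61 from the RefSeq start in Scg2, -72 to -65 in Chgb and -78 to -71 in Pcsk1, and the core of Chga lay at -44 to -40. The GENCODE M21 annotation starts the gene 94 bases further upstream for Scg2, 364 for Chgb and 31 for Pcsk1, so these windows fall partly or wholly inside its gene model. A match is a description of letters and not evidence of binding. In the sections below Scg2 and Pcsk1 were highest in the hypothalamus and lowest in the hippocampus, whereas Chgb was highest in the hippocampus.

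Per length of merged exons, the 10 genes spanned a wide range of abundance. Cpe ranked 12th in the hypothalamus, 13th in the nucleus accumbens and 9th in the hippocampus among 14932 genes by mean CPM per kilobase in basal libraries. The hypothalamus had 904 CPM per kilobase of it, the nucleus accumbens 871 and the hippocampus 1262. Scg2 ranked 33rd in the hypothalamus (444 CPM per kilobase), 59th in the nucleus accumbens (250) and 448th in the hippocampus (75.7). Pcsk1 was the least abundant by this measure, at 11.1, 4.43 and 1.57 CPM per kilobase in the same order of regions, which are percentiles 70.6, 45.5 and 23.9. Merged exons include rare isoforms, which matters most for Pam (11892 bases) and Pcsk2 (7910 bases), so the levels per length of these 2 are approximate.

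**Figure D1:**
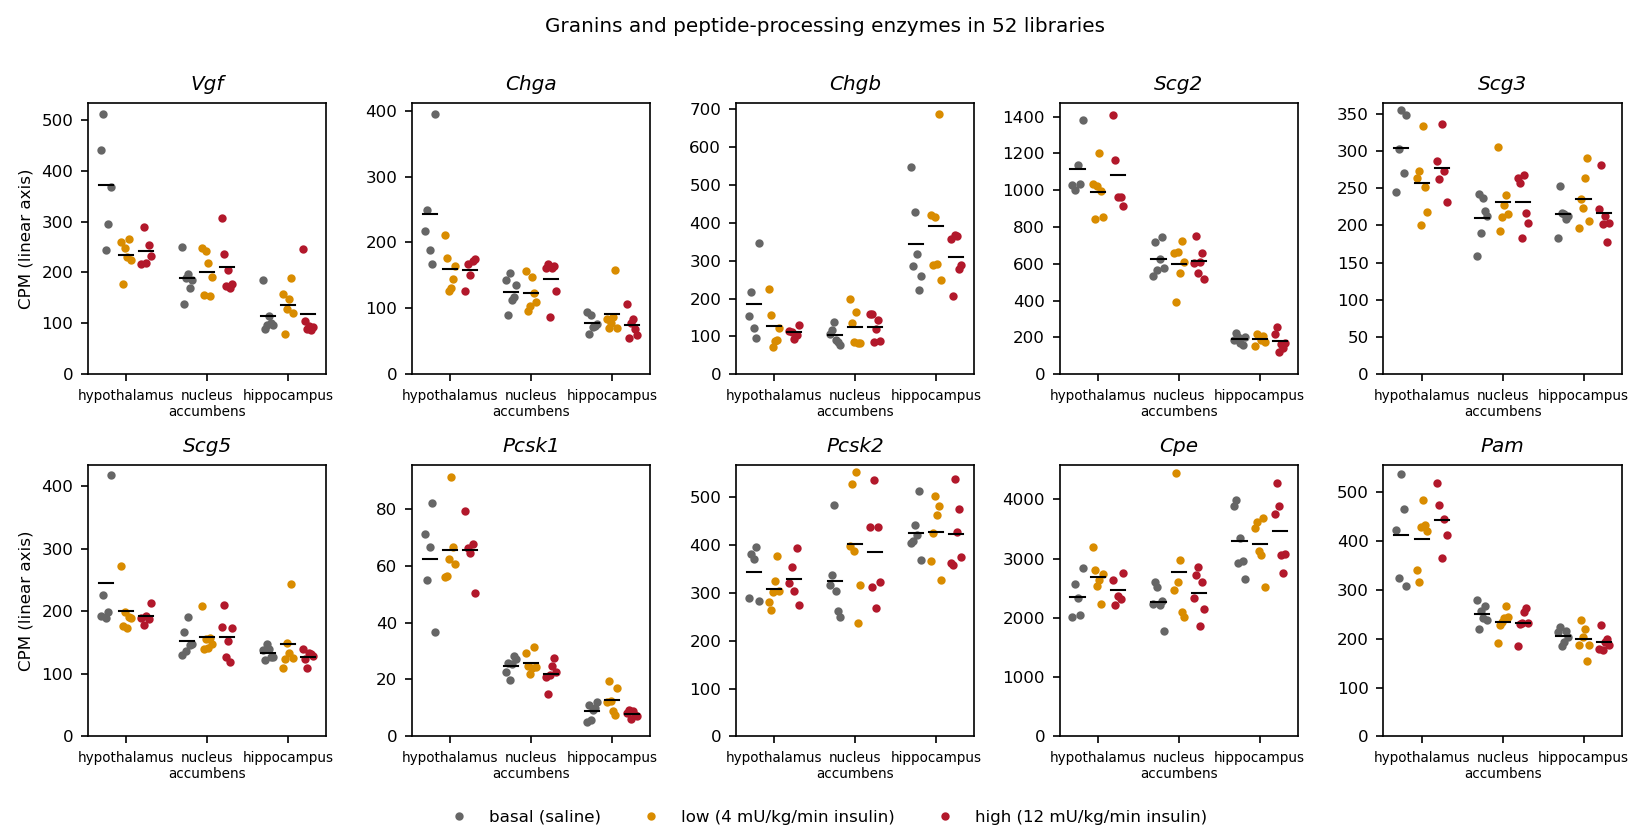
CPM of each gene (linear vertical axis from 0) in each of the 52 libraries, grouped by region and, within a region, by basal, low and high infusion; points are libraries and bars are group means. Scg2 and Pcsk1 step down across the 3 regions, Chgb is highest in the hippocampus, and 3 basal hypothalamic libraries carry the highest Vgf values (368 to 512 CPM).

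Under saline the hypothalamus held more RNA of most of these genes than the hippocampus. In the edgeR quasi-likelihood test with Benjamini-Hochberg adjustment over all genes, 9 of the 10 passed an adjusted p of 0.05, of which 7 were higher and 2 lower in the hypothalamus. The regional fit takes the 52 libraries as independent, although the labels do not say whether the regions share mice. Regional differences were common in this table, with 46% of all 14985 genes called, 24.4% higher and 21.6% lower. The 6 granins had 5 higher and 1 lower and the 4 enzymes had 2 higher and 1 lower, with a median log2 difference over the 10 of 0.94 against 0.06 over all genes. The groups did not overlap in 6 of the 10 (24.9% of all genes). In bulk tissue, fewer cells of a type and less RNA per cell cannot be told apart.

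Scg2 (ENSMUSG00000050711, chr1:79434669-79440120, minus strand, GENCODE M21 on GRCm38), the precursor of secretoneurin, showed the steepest granin gradient. Its basal libraries had 1026, 1003, 1136, 1032 and 1383 CPM in the hypothalamus, against a lowest value of 159, a median of 192 and a highest of 226 CPM in the hippocampus. It averaged 1116 ± 158 CPM in the hypothalamus (SD, n = 5) and 190 ± 24.9 CPM in the hippocampus (SD, n = 6), giving a log2 fold change of 2.55 (SE 0.15, edgeR adjusted p = 6.3e-19). Every hypothalamic library lay far above every hippocampal one.

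Vgf, whose peptides act in energy balance, averaged 372 ± 108 CPM in the hypothalamus (SD, n = 5) and 114 ± 36.4 CPM in the hippocampus (SD, n = 6). The log2 fold change was 1.71 (SE 0.22, edgeR adjusted p = 8.9e-09). Chga, chromogranin A, averaged 244 ± 89.9 CPM in the hypothalamus (SD, n = 5) and 77.5 ± 12.1 CPM in the hippocampus (SD, n = 6), giving a log2 fold change of 1.65 (SE 0.20, edgeR adjusted p = 1.2e-09). Scg5, which encodes the PC2 chaperone 7B2, was higher by 0.88 on the log2 scale (SE 0.17, edgeR adjusted p = 1.8e-05), and Scg3, which tethers granins to the vesicle membrane, by 0.50 (SE 0.13, edgeR adjusted p = 0.0018). The hypothalamic values of Vgf, Chga and Scg5 include the GC-leaning basal libraries. Without the GC-leaning libraries, which leaves 2 basal libraries of the hypothalamus and 5 of the hippocampus, the log2 differences were 1.43 for Vgf, 1.26 for Chga and 0.54 for Scg5, and all 3 still passed the test.

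Chgb (ENSMUSG00000027350, chr2:132781278-132795079, plus strand), chromogranin B, ran the other way. Its basal libraries had 153, 217, 123, 95.8 and 346 CPM in the hypothalamus, against a lowest value of 224, a median of 301 and a highest of 549 CPM in the hippocampus. The hypothalamus lay lower by a log2 fold change of -0.88 (SE 0.29, edgeR adjusted p = 0.010). The groups overlapped only through basal replicate 5 of the hypothalamus, at 346 CPM. Without the GC-leaning libraries the log2 fold change was -1.47 (SE 0.35, adjusted p = 0.0010). Within the hippocampus, then, the 2 chromogranins stood at 344 ± 122 CPM for Chgb and 77.5 ± 12.1 CPM for Chga (SD, n = 6). Their merged exon lengths are close, 2740 and 2756 bases, which gives 126 CPM per kilobase for Chgb and 28.1 for Chga. In the hypothalamus the order was reversed, with 68.2 CPM per kilobase for Chgb and 88.4 for Chga.

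The convertases also parted. Pcsk1 (ENSMUSG00000021587, chr13:75089826-75134861, plus strand) had 71.2, 54.8, 66.6, 82.1 and 36.5 CPM in basal hypothalamic libraries, against a lowest value of 4.93, a median of 9.62 and a highest of 11.9 CPM in the hippocampus. Its log2 fold change of 2.78 (SE 0.20, edgeR adjusted p = 4.1e-16) was the largest of the 10 genes. Pcsk2 did not pass the test, at 344 ± 53.8 CPM in the hypothalamus (SD, n = 5) and 427 ± 49.4 CPM in the hippocampus (SD, n = 6), a log2 difference of -0.31 (95% interval -0.65 to 0.03, edgeR adjusted p = 0.14). Averaged over the 3 infusions, the Pcsk2 difference of -0.38 did pass (edgeR adjusted p = 7.5e-04).

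The enzymes that finish the peptides also split. Pam averaged 411 ± 96 CPM in the hypothalamus (SD, n = 5) and 206 ± 14.7 CPM in the hippocampus (SD, n = 6), with a log2 fold change of 1.00 (SE 0.12, edgeR adjusted p = 1.5e-09) and no overlap. Cpe, abundant in every library, was lower in the hypothalamus, at 2359 ± 352 CPM (SD, n = 5), than in the hippocampus, at 3293 ± 550 CPM (SD, n = 6). Its log2 fold change was -0.48 (SE 0.15, edgeR adjusted p = 0.0071), and 4 of the 5 hypothalamic libraries lay below every hippocampal one.

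**Figure D2:**
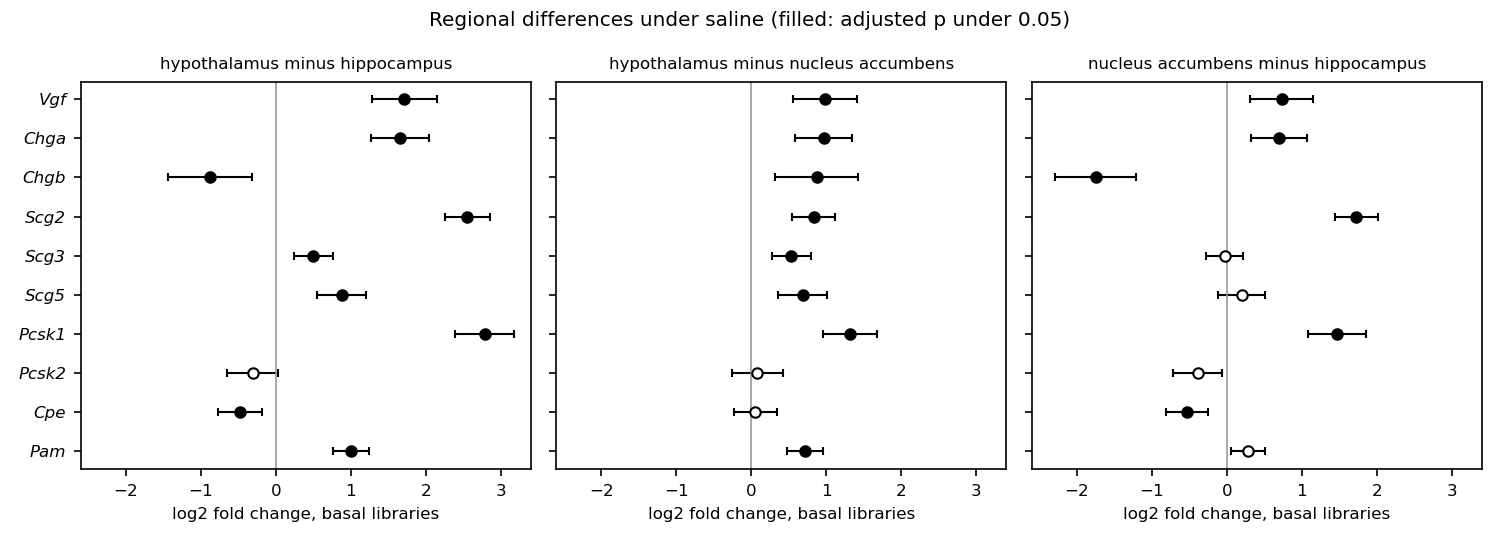
Log2 fold change of each gene between regions in basal libraries, with 95% intervals; filled points passed an adjusted p of 0.05. Pcsk1 (2.78) and Scg2 (2.55) lie furthest right in the comparison of hypothalamus with hippocampus, and Chgb lies left of 0 wherever the hippocampus is subtracted (-0.88 and -1.75).

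Against the nucleus accumbens, the hypothalamus was higher in 8 of the 10 genes and lower in 0 (edgeR, adjusted p of 0.05), where 32.1% of all genes were called, 17.3% higher. All 6 granins were among the 8, with Pcsk1 and Pam. The largest log2 difference was again that of Pcsk1, at 62.2 ± 17.4 CPM in the hypothalamus (SD, n = 5) and 24.8 ± 3.17 CPM in the nucleus accumbens (SD, n = 6), giving a log2 fold change of 1.31 (SE 0.19, edgeR adjusted p = 3.1e-07). The log2 differences of Vgf (0.98), Chga (0.96), Chgb (0.87), Scg2 (0.83), Pam (0.71), Scg5 (0.68) and Scg3 (0.53) were smaller. Pcsk2 differed by 0.08 (95% interval -0.26 to 0.42) and Cpe by 0.05 (95% interval -0.24 to 0.35), and neither passed. The groups did not overlap for Chga, Scg2, Scg3, Pcsk1 and Pam (14.6% of all genes).

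Chga, Scg5 and Chgb lost their calls without the GC-leaning libraries of all regions. This left 2 of 5 basal libraries of the hypothalamus and 5 of 6 of the nucleus accumbens, and 5 of the 10 genes passed. The log2 differences were then 0.55 for Chga (adjusted p = 0.072), 0.30 for Scg5 (adjusted p = 0.19) and 0.11 for Chgb (adjusted p = 0.89). With the lean as a covariate and all libraries kept, 7 passed, among them Chga (0.73, adjusted p = 1.4e-04) and Scg5 (0.58, adjusted p = 0.0053), and Chgb did not (0.51, adjusted p = 0.10). Chgb also lost its call without basal replicate 5 of the hypothalamus (0.53, adjusted p = 0.17). Without the GC-leaning libraries Scg2, Scg3, Vgf, Pcsk1 and Pam kept an adjusted p under 0.05, with Pcsk1 at 1.53 and Pam at 1.03. The part of the lean in the 3 lost calls was not tested beyond these values.

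The nucleus accumbens stood between the other 2 regions for several genes. Against the hippocampus it had 4 of the 10 higher and 2 lower (edgeR, adjusted p of 0.05), where 29.2% of all genes were called, 14.7% higher and 14.5% lower. Scg2 averaged 629 ± 86.3 CPM in the nucleus accumbens and 190 ± 24.9 CPM in the hippocampus (SD, n = 6 each), giving a log2 fold change of 1.72 (SE 0.15, edgeR adjusted p = 6.4e-14). Pcsk1 was higher by 1.47 (SE 0.20), Vgf by 0.73 (SE 0.21) and Chga by 0.69 (SE 0.19) on the log2 scale. Scg2, Pcsk1, Vgf and Chga thus ranked hypothalamus, nucleus accumbens, hippocampus, with each step past the test when all libraries were kept.

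Chgb gave the largest contrast in the other direction. It averaged 103 ± 22.5 CPM in the nucleus accumbens and 344 ± 122 CPM in the hippocampus (SD, n = 6 each), giving a log2 fold change of -1.75 (SE 0.28, edgeR adjusted p = 1.2e-06), and every accumbens library lay below every hippocampal one. Cpe was lower in the nucleus accumbens by a log2 fold change of -0.53 (SE 0.14, edgeR adjusted p = 0.0027), also with no overlap. Groups failed to overlap for 4 genes, Scg2, Pcsk1, Chgb and Cpe (16.6% of all genes). Scg3 (-0.03), Scg5 (0.20), Pam (0.29, adjusted p = 0.058) and Pcsk2 (-0.39, adjusted p = 0.067) did not pass. Leaving out the 6 accumbens libraries above 100 CPM of Slc17a7, an alternative chosen after the data were seen, gave log2 fold changes of -1.89 for Chgb, 1.81 for Scg2 and 1.57 for Pcsk1, and Pcsk2 then passed (-0.57, adjusted p = 0.0057). Pcsk2 also passed with limma-voom (-0.42), with tag range as a batch term (-0.40), each at an adjusted p of 0.046, and without basal replicate 3 of the nucleus accumbens (-0.54, adjusted p = 0.0090). Pam passed with GC lean as a covariate (adjusted p = 0.015), with tag range (0.041), with only the 2 groups compared (0.020), averaged over the 3 infusions (8.9e-04) and in 13 of the 52 fits leaving out 1 library, with log2 differences from 0.26 to 0.33.

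Other genes of peptide processing and of dense-core vesicles were less uniform. Of 14 tested genes of a list of other processing genes, 7 were higher and 3 lower in the hypothalamus than in the hippocampus, and 6 higher and 2 lower than in the nucleus accumbens. These are 71.4% and 57.1% of the list, against 46% and 32.1% of all genes. Of 22 genes of dense-core vesicles, 7 were higher and 3 lower than in the hippocampus, and 6 higher and 1 lower than in the nucleus accumbens, 45.5% and 31.8% of that list, which is close to the shares over all genes. Their median log2 differences were 0.41 and 0.38 for the processing genes and 0.05 and 0.16 for the vesicle genes, against 0.06 and 0.05 over all genes. Pcsk1n, which encodes proSAAS, an inhibitor of PC1/3, averaged 894 ± 638 CPM in the hypothalamus (SD, n = 5), 314 ± 86.8 CPM in the nucleus accumbens and 276 ± 92.5 CPM in the hippocampus (SD, n = 6 each). Its log2 fold change was 1.51 for hypothalamus against nucleus accumbens (edgeR adjusted p = 8.0e-04) and 1.70 against hippocampus (edgeR adjusted p = 6.5e-05). The hypothalamic basal libraries spanned 289 to 1799 CPM of Pcsk1n, so its high mean was not shared by all of them.

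In the hypothalamus Vgf fell at the low insulin rate in the edgeR fit of that region, and no other of the 10 genes passed. The call was lost with tag range (log2 difference -0.51, adjusted p = 0.13) or tag run (-0.45, adjusted p = 0.15) as a block, with only the 2 groups compared (-0.65, adjusted p = 0.11), with all 52 libraries in 1 fit (-0.67, adjusted p = 0.056) and without the GC-leaning basal libraries (-0.18, adjusted p = 0.84). Vgf kept its call with DESeq2 (adjusted p = 0.0053), limma-voom (0.032), edgeR with no filter (0.018) and edgeR with DESeq2 size factors (0.032). It also passed in 9 of the 16 fits leaving out 1 library. Tag ranges and runs are groups of neighbouring tag numbers in the library titles. The gene lies at chr5:137026392-137033351 on the plus strand (ENSMUSG00000037428). Vgf had 260, 178, 248, 231, 266 and 224 CPM in the low libraries, against 440, 512, 244, 295 and 368 CPM in the basal libraries. The groups overlapped, since basal replicate 3 (244 CPM) lay inside the range of the low libraries. It averaged 234 ± 31.8 CPM at the low rate (SD, n = 6) and 372 ± 108 CPM in basal libraries (SD, n = 5), giving a log2 fold change of -0.65 (SE 0.16, edgeR adjusted p = 0.033). This 1 call in 10 stands beside 5.38% of all 14139 genes called in this comparison, 3.59% higher and 1.78% lower. With edgeR, 2 of the 10 had an unadjusted p under 0.05, where 29.9% of all genes had one.

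The other granins also had negative estimates that did not pass in the edgeR fit of all hypothalamic libraries. Chga had 211, 177, 126, 131, 145 and 164 CPM at the low rate, against 217, 250, 189, 168 and 395 CPM in basal libraries, a log2 difference of -0.60 (SE 0.19, edgeR adjusted p = 0.066). Chga passed with DESeq2 (-0.60, adjusted p = 0.035). In edgeR it passed without low replicate 1, basal replicate 3 or basal replicate 4 (-0.68 to -0.72, adjusted p from 0.017 to 0.030). Chgb had 226, 156, 73.1, 87.7, 91.5 and 123 CPM at the low rate, against 153, 217, 123, 95.8 and 346 CPM in basal libraries, a log2 difference of -0.56 (SE 0.31, edgeR adjusted p = 0.22). Both pairs of groups overlapped. The log2 differences were -0.28 for Scg5, -0.23 for Scg3 and -0.15 for Scg2, with adjusted p from 0.26 to 0.44.

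None of the enzymes passed at the low rate. Their log2 differences were 0.21 for Cpe (95% interval -0.03 to 0.45), 0.10 for Pcsk1 (-0.24 to 0.45), -0.01 for Pam (-0.30 to 0.28) and -0.14 for Pcsk2 (-0.38 to 0.10). The median over the 10 genes was -0.19, against -0.02 over all genes.

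At the high rate 0 of the 10 genes passed in edgeR (0.184% of all genes called), 3 had an unadjusted p under 0.05 (24.1% of all genes), DESeq2 called 1 (Vgf) and limma-voom 0. Vgf had 216, 290, 219, 255 and 233 CPM at the high rate, so the highest of these lay below 4 of the 5 basal libraries. Its log2 difference was -0.60 (SE 0.17, adjusted p = 0.11), and those of Chga and Chgb were -0.61 (SE 0.20, adjusted p = 0.14) and -0.74 (SE 0.32, adjusted p = 0.18). The 2 rates share their basal libraries. Between them, high minus low, 0 of 10 passed with edgeR, DESeq2 and limma-voom, and 0% of all genes were called by edgeR. In edgeR 0 of the 10 had an unadjusted p under 0.05, where 1.41% of all genes had one. Vgf differed between the rates by 0.05 (95% interval -0.27 to 0.36).

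**Figure D3:**
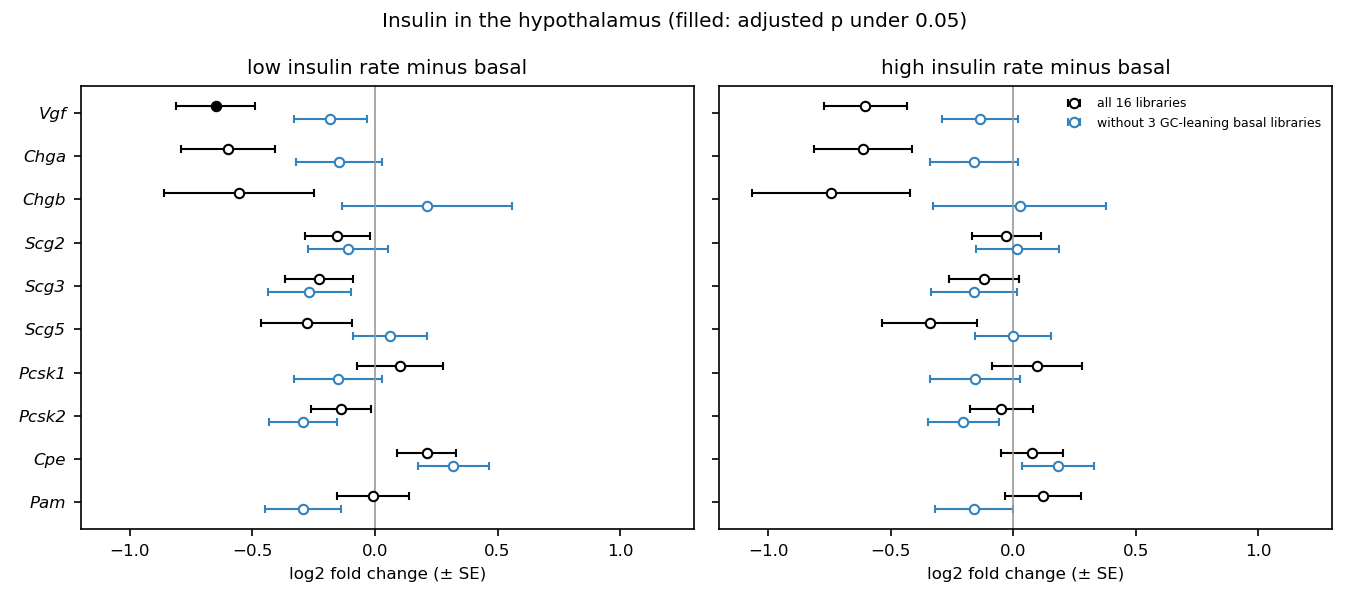
Log2 fold change (± SE) of each gene in the hypothalamus at the low rate (left) and high rate (right) against basal, from all 16 libraries and without the 3 GC-leaning basal libraries; filled points passed an adjusted p of 0.05. Vgf, Chga and Chgb lie between -0.56 and -0.74 with all libraries and between -0.18 and 0.21 without those 3.

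The 3 granins with the lowest estimates were also the 3 whose levels followed the GC lean of the libraries most closely. The transcripts of Vgf (64.8% GC), Chga (57.7%) and Chgb (53.9%) were the most GC-rich of the 10, the other 7 lying between 41.3% and 48.4%. Vgf had 440, 512 and 368 CPM in the 3 leaning hypothalamic libraries, all basal, and from 178 to 295 CPM in the 13 others. In the hippocampus, where the leaning libraries came from all 3 infusions, Vgf was between 157 and 246 CPM in 4 leaning libraries and between 78.8 and 147 CPM in 14 others. In the nucleus accumbens it was between 236 and 308 CPM in 4 leaning libraries and between 138 and 242 CPM in 14 others. Vgf was thus higher in leaning libraries of every region, with a single overlapping library, accumbens low replicate 3 at 242 CPM. The lean was scored from these same counts, so genes with GC-rich transcripts are expected to be higher in leaning libraries. This pattern is a description, and the part of the lean in the Vgf call was not tested.

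Chga in the hypothalamus was between 217 and 395 CPM in leaning libraries and between 126 and 211 CPM in the others, without overlap. In the hippocampus (83.9 to 158 against 54.3 to 89.2 CPM) and the nucleus accumbens (143 to 167 against 87.2 to 164 CPM) Chga overlapped. Chgb in the hippocampus was between 357 and 687 CPM in leaning libraries and between 208 and 430 CPM in the others, with overlap. It also overlapped in the hypothalamus (153 to 346 against 73.1 to 226 CPM) and the nucleus accumbens (107 to 200 against 78.2 to 165 CPM). Pcsk1, with the most GC-poor transcript (41.3%), had medians of 54.8 CPM in leaning and 66.1 CPM in other hypothalamic libraries.

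Without the 3 leaning basal libraries, which leaves 2 basal libraries, the low-rate log2 differences were -0.18 for Vgf (adjusted p = 0.84), -0.15 for Chga (adjusted p = 0.91) and 0.21 for Chgb (adjusted p = 0.94). With the lean as a covariate they were -0.30 for Vgf (adjusted p = 0.43), -0.24 for Chga (adjusted p = 0.64) and -0.01 for Chgb (adjusted p = 1.00). All 3 leaning libraries were basal, so neither fit can tell the lean and the infusion apart. The tag numbers gave a further split. In the highest range of tags Vgf had 231, 266 and 224 CPM in low libraries, against 244, 295 and 368 CPM in basal libraries. In the lowest range it had 260 CPM in the only low library, against 440 and 512 CPM in basal libraries, and the middle range held no basal library. Vgf also lost its call without basal replicate 1, 2 or 5 or low replicate 2, 3, 4 or 6 (log2 fold change from -0.52 to -0.67, adjusted p at most 0.12).

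**Figure D4:**
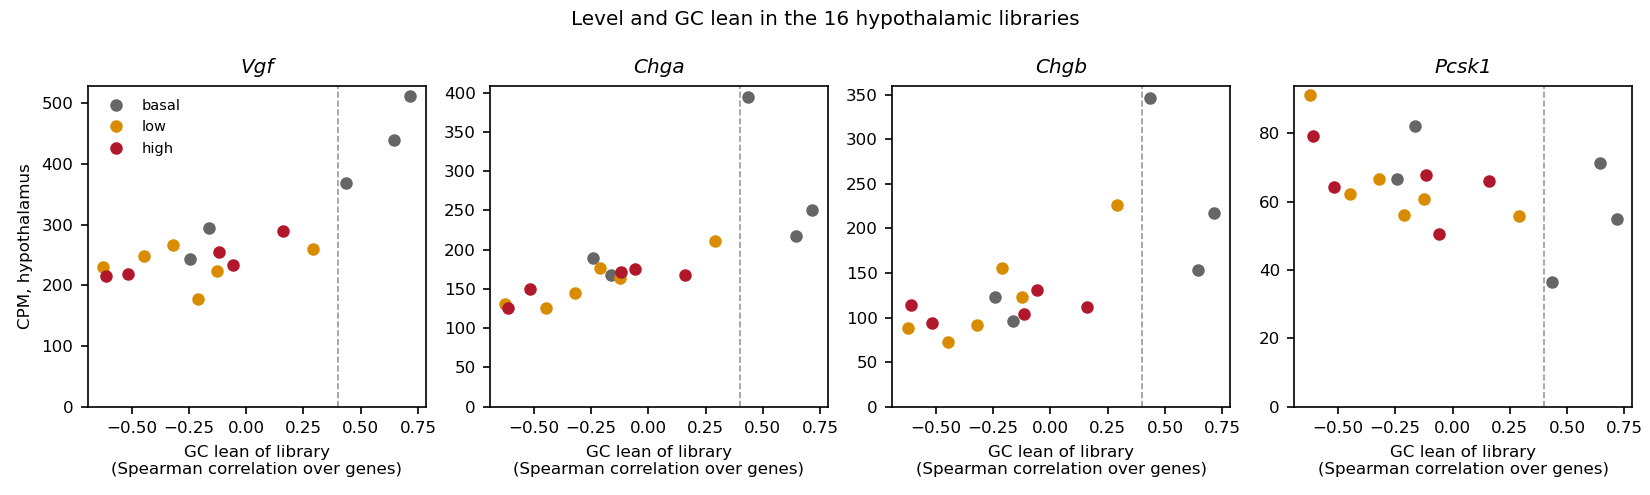
CPM (vertical axis from 0) of Vgf, Chga, Chgb and Pcsk1 in the 16 hypothalamic libraries against the GC lean of each library, by infusion; the dashed line marks a lean of 0.4. The 3 libraries right of the line are all basal, and they hold the 3 highest Vgf and the 3 highest Chga values.

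Levels of cell-type markers stand beside this result. The summed level of 8 neuronal markers was 5587 ± 485 CPM at the low rate (SD, n = 6) and 4480 ± 464 CPM in basal libraries (SD, n = 5). The low libraries spanned 4914 to 6314 CPM and the basal libraries 3914 to 5067 CPM. None of the 8 passed with edgeR. An unadjusted p under 0.05 was reached by 3 (37.5%, against 29.9% of all genes), and 5 had positive and 3 negative log2 differences. All 5 ependymal markers had negative differences at the low rate (median -0.92). Of these, 4 had an unadjusted p under 0.05 (80%). Ccdc153 passed (-1.57, edgeR adjusted p = 0.029), which is 20% of the list against 5.38% of all genes. The summed level of the ependymal markers was between 12.8 and 23.6 CPM at the low rate and between 14.9 and 48.1 CPM in basal libraries. At the high rate all 5 were again negative (median -0.90) and 0 passed. Of 6 astrocyte markers 3 had positive and 3 negative differences at the low rate (median 0.10). Among them the water channel gene Aqp4 (0.83, edgeR adjusted p = 0.042) and the glutamate transporter gene Slc1a2 (0.76, edgeR adjusted p = 0.024) passed, both higher (33.3% of the list). Of 5 endothelial markers 3 were positive and 2 negative (median 0.02), and the transporter gene Slco1a4 passed (0.59, edgeR adjusted p = 0.038), 20% of the list. All 6 oligodendrocyte markers were positive (median 0.27), and of 6 microglia markers 1 was positive and 5 negative (median -0.29). In both lists 0 passed. The 5 hypothalamic peptide genes ranged from 43.8 to 1273 CPM at the low rate and from 805 to 1606 CPM in basal libraries. Leaving out the libraries that lack a peptide, 3 of the 6 low ones, gave log2 differences of -0.59 for Vgf, -0.86 for Chga and -1.16 for Chgb (SE 0.34), each with an adjusted p of 0.12. The Chgb estimate was further from 0 than with all libraries (-0.56). The low libraries left out, replicates 1, 2 and 6, held the highest Chgb values of the low group (226, 156 and 123 CPM). The GC-leaning basal libraries stayed in that fit, and in the fit without them the Chgb estimate was 0.21. The cause of these shifts was not tested. Pituitary markers (Gh, Prl, Cga, Tshb, Lhb and Pou1f1), genes of a tissue rich in granins, summed to between 2.40 and 67.7 CPM at the low rate and between 1.59 and 30.9 CPM in basal libraries. Lhb was at 0 in every hypothalamic library. The marker genes were not read from the fit without the GC-leaning libraries, in which 3 of all genes were called at the low rate. The part of these cell types in the result was not tested further.

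In the hippocampus and the nucleus accumbens insulin moved none of the 10 genes past the test. In each region 0 of 10 passed in any of the 3 contrasts between infusions with edgeR, DESeq2 and limma-voom, and 0% of all genes were called by edgeR. In the hippocampus 1 of the 10 had an unadjusted p under 0.05 for the low rate against basal, 0 for the high rate against basal and 1 between the rates, Pcsk1 both times, where 6.05%, 2.61% and 2.84% of all genes had one. The nucleus accumbens had 0 such genes in each contrast. Summed choroid plexus markers spanned 65.9 to 1438 CPM in basal, 90.7 to 6278 CPM in low and 60.8 to 2841 CPM in high hippocampal libraries. Summed oligodendrocyte markers there spanned 2769 to 5107, 5877 to 18296 and 5457 to 7620 CPM in the same order. The part of this variation in the hippocampal results was not tested. Pcsk1 averaged 8.81 ± 2.82 CPM in basal libraries, 12.9 ± 4.56 CPM at the low rate and 7.85 ± 1.22 CPM at the high rate in the hippocampus (SD, n = 6 each). The log2 difference was 0.54 for low minus basal (SE 0.24, adjusted p = 0.77) and -0.72 for high minus low (SE 0.24, adjusted p = 1.00).

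Vgf differed in the hippocampus by 0.27 at the low rate (95% interval -0.24 to 0.78) and 0.07 at the high rate (-0.44 to 0.58) on the log2 scale. The nucleus accumbens gave differences of 0.09 (-0.23 to 0.41) and 0.16 (-0.16 to 0.48). A log2 fold change of -0.65, the estimate for the hypothalamus at the low rate, lies below all 4 intervals, but it has an error of its own (SE 0.16). The estimate without the GC-leaning libraries, -0.18, lies inside 3 of the 4, which come from fits that kept the GC-leaning libraries of their regions. Setting an estimate beside these intervals is not a test between regions.

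Whether insulin acted differently between regions was tested as an interaction in 1 model of the 52 libraries, which takes them as independent. Of the 10 genes 0 passed in any of the 6 interaction contrasts with edgeR, DESeq2 and limma-voom (0% of all genes called by edgeR). The smallest adjusted p values were those of Chga (-0.85, adjusted p = 0.12) and Vgf (-0.94, adjusted p = 0.12) for hypothalamus minus hippocampus in low minus basal. For hypothalamus minus accumbens in high minus basal, Vgf, Chga and Chgb had interaction estimates of -0.79, -0.83 and -1.04 on the log2 scale, each with an adjusted p of 0.23. For hypothalamus minus hippocampus 3 of the 10 had an unadjusted p under 0.05 at the low rate (24.3% of all genes) and 2 at the high rate (9.5%). For hypothalamus minus accumbens the counts were 4 at the low rate (14.1%) and 3 at the high rate (18.8%). For accumbens minus hippocampus they were 0 at the low rate (5.27%) and 0 at the high rate (2.38%). The difference between regions in the Vgf response was therefore not shown.

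Of 68 tested genes on 4 lists of related genes, 5 passed in the hypothalamus at the low rate, 7.35% against 5.38% of all genes. An unadjusted p under 0.05 was reached by 41.2% of the 68 and 29.9% of all genes. Of the 14 processing genes 3 passed (21.4%). Cpd, a carboxypeptidase of the trans-Golgi network, rose by 0.61 on the log2 scale (SE 0.15, edgeR adjusted p = 0.018) and Cpm, a membrane-bound carboxypeptidase, rose by 0.88 (edgeR adjusted p = 0.028). Pcsk4, a convertase best known from the testis, had 5.85 ± 1.80 CPM at the low rate (SD, n = 6) and 11.6 ± 3.08 CPM in basal libraries (SD, n = 5), giving a log2 fold change of -0.98 (edgeR adjusted p = 0.027). The median of the list was -0.23. Pcsk1n had 406 ± 152 CPM at the low rate (SD, n = 6) and 894 ± 638 CPM in basal libraries (SD, n = 5), a log2 difference of -1.12 that did not pass (SE 0.39, edgeR adjusted p = 0.079).

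Of 22 dense-core vesicle genes 2 passed (9.09%). Ccdc186, which acts in vesicle maturation, rose by 0.51 (edgeR adjusted p = 0.011), and Ptprn, the vesicle membrane protein IA-2, changed by -0.52 (edgeR adjusted p = 0.037). The list's median was -0.03. Of 23 tested neuropeptide precursor genes 0 passed with edgeR, while 11 had an unadjusted p under 0.05 (47.8%), 19 had negative estimates and the median was -0.97. Of 9 tested activity-regulated genes 0 passed with edgeR and 3 had an unadjusted p under 0.05 (33.3%, close to the 29.9% of all genes), and Junb had the smallest p (-0.63, edgeR adjusted p = 0.071). At the high rate 0 of the 68 tested genes of these 4 lists passed with edgeR and 13 had an unadjusted p under 0.05 (19.1%, against 24.1% of all genes), and Btg2 had the smallest p of the activity-regulated genes (0.31, adjusted p = 0.32). These lists were not refitted without the GC-leaning libraries.

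The 10 genes did not vary as a block across libraries. Over the 16 hypothalamic libraries the Pearson correlations of log2 CPM, taken after removing the mean of each infusion group, were below 0 in 17 of 45 gene pairs, with a median of 0.10. Chga went with Chgb (0.92) and Scg5 (0.81) and against Pcsk1 (-0.86) and Pam (-0.78). Over the 18 hippocampal libraries 16 of 45 pairs were below 0, with Chga against Pam at -0.70 and against Pcsk1 at -0.62, and in the nucleus accumbens 22 of 45, with Chga against Pam at 0.04. The genes of a pair share a library, with its depth and GC lean, so these are descriptions. Of single libraries, 2 held the extremes. Basal replicate 5 of the hypothalamus had the highest Chga (395 CPM), Chgb (346 CPM) and Scg5 (419 CPM) of that region, and the lowest Pcsk1 (36.5 CPM) and Pam (309 CPM). Low replicate 5 of the hippocampus had the highest Chga (158 CPM), Chgb (687 CPM) and Scg5 (244 CPM) of its region, with the lowest Pam (155 CPM) and Pcsk1 at 7.61 CPM. Both were GC-leaning libraries outside the lowest tag range, with leans of 0.44 and 0.42. In both, chromogranins and 7B2 were high where the amidating enzyme was low.

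Over the 16 hypothalamic libraries the mean log2 level of the 10 genes was most alike in pattern to 5 genes outside the set, by Pearson correlation over 11401 genes with at least 5 CPM. These were Fam155a (0.94), Zfyve19 (0.94), Nagk (0.93), Ppp1r8 (0.93) and Cfap298 (0.93). The points share libraries, depth and GC lean, so these values are a description only. None of the 5 passed the insulin test at the low rate (adjusted p from 0.067 to 0.12).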

How the data were processed

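RNA from hypothalamus, hippocampus and nucleus accumbens was counted in 52 libraries. The authors deposited 1 table of raw read counts per Ensembl gene with no normalization. Per the submitters' processing notes, reads were handled with STAR and featureCounts on GRCm38.p4. Versions, options and strand setting were not given in the sources used here, so overlapping antisense genes are uncertain. GENCODE M21 gave names for 45143 of 46071 genes, positions and transcript GC content. The 928 others hold 0.13% of counts and stayed in the tests.

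The tests used edgeR 4.0.16 in R 4.3.3, with TMM factors, filterByExpr, a robust quasi-likelihood fit and 2-sided contrasts. Each region was fitted alone with its 3 infusions, and 1 fit of all 52 libraries gave regional contrasts under saline and interactions. Benjamini-Hochberg adjustment covered all genes tested, and an adjusted p under 0.05 was called. An SE is the size of the log2 fold change divided by the root of its F statistic, and 95% intervals are normal. CPM values use the 52-library TMM factors. Depths of 2453412 to 8279612 counts limit precision most for Pcsk1, the least abundant of the 10. Without molecular identifiers, PCR copies may be counted repeatedly.

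Alternatives were DESeq2 size factors, no filter, DESeq2 1.42.0, limma-voom (limma 3.58.1), a batch term for tag range or for tag run, GC lean as a covariate, leaving out GC-leaning libraries, libraries lacking a peptide or each library in turn, fits of only the 2 compared groups or of all 52 libraries together, and regional differences averaged over infusions. Leaving out accumbens libraries high in Slc17a7 was added after the data were seen. Named genes are the 10 members, list genes called under insulin (at most 4 per list), Pcsk1n, the activity-regulated gene with the smallest p and the 5 genes most alike in pattern. Members and lists were chosen with earlier results of these data known. The steps were tested on simulated counts.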

Additional observations from a re-analysis of the deposited data

Results flagged for a closer look

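In 90 combinations of gene and group, the highest or lowest library was compared with its nearest neighbour by Dixon's ratio, which chance exceeds in about 1 of 20 groups. It was exceeded in 8. In the hippocampus Vgf stood at 186 CPM in basal replicate 1 (next 115 CPM) and at 246 CPM in high replicate 1 (next 105 CPM). Low replicate 5 of the hippocampus stood apart for Chga (158 CPM, next 87.1 CPM) and Scg5 (244 CPM, next 149 CPM). Scg5 stood at 419 CPM in basal replicate 5 of the hypothalamus (next 227 CPM), at 273 CPM in low replicate 1 of the hypothalamus (next 199 CPM) and at 209 CPM in low replicate 1 of the nucleus accumbens (next 157 CPM). Pcsk1 stood at 91.1 CPM in low replicate 4 of the hypothalamus (next 66.5 CPM). Of these libraries, the 3 hippocampal ones, hypothalamic basal replicate 5 and accumbens low replicate 1 were GC-leaning.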

How the results depend on the processing

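No analysis paired by replicate number was possible, because the labels give no replicate numbers shared between groups. Tag runs that hold both basal and low hypothalamic libraries allowed a fit with tag run as a block, given below; the labels do not say what a run shares. The count of the 10 genes called in the hypothalamus at the low rate was 1, and it was 2 with DESeq2 and 0 with tag range, with tag run, with GC lean as a covariate, without GC-leaning libraries, without libraries lacking a peptide, with only the 2 groups compared and with all 52 libraries in 1 fit. It ranged from 0 to 2 over the 16 fits leaving out a library. With tag range and tag run Vgf stood at -0.51 (adjusted p = 0.13) and -0.45 (adjusted p = 0.15). The count at the high rate was 0, or 1 with DESeq2, and ranged from 0 to 2 without single libraries (2 without basal replicate 4). The count over all genes at the low rate was 760, or 597 with no filter, 1690 with DESeq2, 1083 with limma-voom, 29 with tag range, 16 with tag run, 23 with GC lean, 3 without GC-leaning libraries, 22 with only 2 groups, 24 without libraries lacking a peptide, 734 with all 52 libraries and from 52 to 3171 without single libraries. At the high rate it was 26, or 50, 359, 53, 5, 0, 4, 1, 17, 9 and 0 in the same order and from 6 to 1861 without single libraries. In the hypothalamus against the nucleus accumbens 8 were called, 5 without GC-leaning libraries, and 7 to 8 without single libraries. Chgb lost its call there with tag run (0.81, adjusted p = 0.054), with GC lean (0.51, adjusted p = 0.10) and averaged over infusions (0.24, adjusted p = 0.25). The interaction of hypothalamus and hippocampus at the low rate had 0, and 0 to 1 without single libraries. The other counts of the 10 genes stayed within 1.5 times their value. No called difference changed sign; a difference uncalled in both fits was not scored for sign. The cause of these changes was not tested. Leaving out GC-leaning libraries left 2 basal hypothalamic libraries.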
